A study of Bos taurus with 4 samples.

Results

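The genes described here are 8 antimicrobial, protease inhibitor and related genes of bovine intestinal organoids, namely EBD, PI3, LOC100850808, LOC407163, SLPI, C28H10orf99, LCN2 and STK4. They were taken as the rows with these symbols among the 29792 rows of each count file. They had been chosen by their read counts in these same libraries, as antimicrobial and protease inhibitor genes among the highest of organoid reads, and STK4 was added for its parallel pattern, so their high organoid levels are a description and not a finding. SLPI and LCN2 go against that description. SLPI had no read in any library, and LCN2 had 1 read in muscle and none elsewhere. A read in at least 1 library was present for 7 of the 8 genes, and more than 3 reads for 6 of the 8.

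Beta-defensins are short cationic peptides, held together by disulphide bonds, that epithelia secrete against microbes, and EBD is the enteric beta-defensin of cattle. PI3 encodes elafin, also called trappin-2, a secreted inhibitor of neutrophil elastase and proteinase 3 with a whey acidic protein (WAP) domain and a tail that transglutaminases crosslink to the extracellular matrix. SLPI is a related WAP-domain inhibitor of elastase and cathepsin G. LCN2 binds bacterial siderophores, C28H10orf99 is the cattle name of the gene that encodes the ligand of the receptor GPR15, and STK4 encodes MST1, a kinase at the head of the Hippo pathway. LOC100850808 and LOC407163 carry locus numbers only.

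QuantSeq 3′ mRNA-Seq, which reads the 3′ end of polyadenylated RNA, was carried out on 1 library each of small intestine tissue, muscle tissue, intestinal organoids at passage 5 (P5) and intestinal organoids at passage 10 (P10). All samples came from Hanwoo cattle. The organoids were grown in Matrigel and IntestiCult medium from crypts of the jejunum of healthy animals aged over 24 months, and muscle was the control tissue. The number of animals, and whether tissue and organoids came from the same animal, were not given in the sources used here. With 1 library per group no difference could be tested, no spread between animals or cultures is known, and all intervals cover counting error only. In bulk RNA, fewer cells of a type and less RNA per cell cannot be told apart.

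The libraries held between 12917720 and 17776273 reads, so that 3 reads, taken as the floor, stood for 0.169 to 0.232 CPM, the reads of a row per 1000000 reads of its library. The 18S ribosomal row RN18S1 took 23.6% of muscle reads and between 0.264% and 4.81% of the others. The labelled tissues were checked against marker lists. The 9 epithelial markers summed to 1953 CPM in intestine, 22.4 in muscle, 10336 in P5 and 9764 in P10 organoids. The 8 skeletal muscle markers summed to 38533 CPM in muscle and to at most 2.48 elsewhere, and the 8 macrophage and leukocyte markers to 349 CPM in intestine, 39.7 in muscle, 6.25 in P5 and 5.58 in P10 organoids. Intestine therefore differed from the organoids in epithelial and leukocyte markers together, and the part of this in the results below was not tested.

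The 8 genes together took 0.107% of the reads of intestine (95% Wilson interval 0.106 to 0.109), 0.00129% of muscle, 2.31% of P5 organoids (2.30 to 2.32) and 6.22% of P10 organoids (6.21 to 6.23). The summed share was thus 21.6-fold higher in P5 organoids and 58.0-fold higher in P10 organoids than in intestine, and 2.69-fold higher in P10 than in P5. The summed epithelial markers were 5.29-fold above intestine in P5 organoids, and their P10 to P5 ratio was 0.945. PI3, LOC100850808 and LOC407163 alone accounted for 4.09% of P10 reads as counted. Reads with several alignments were counted by the authors, so a read shared between rows could enter these sums and the library totals more than once. How often this occurred was not tested, and the intervals do not cover it.

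**Figure D1:**
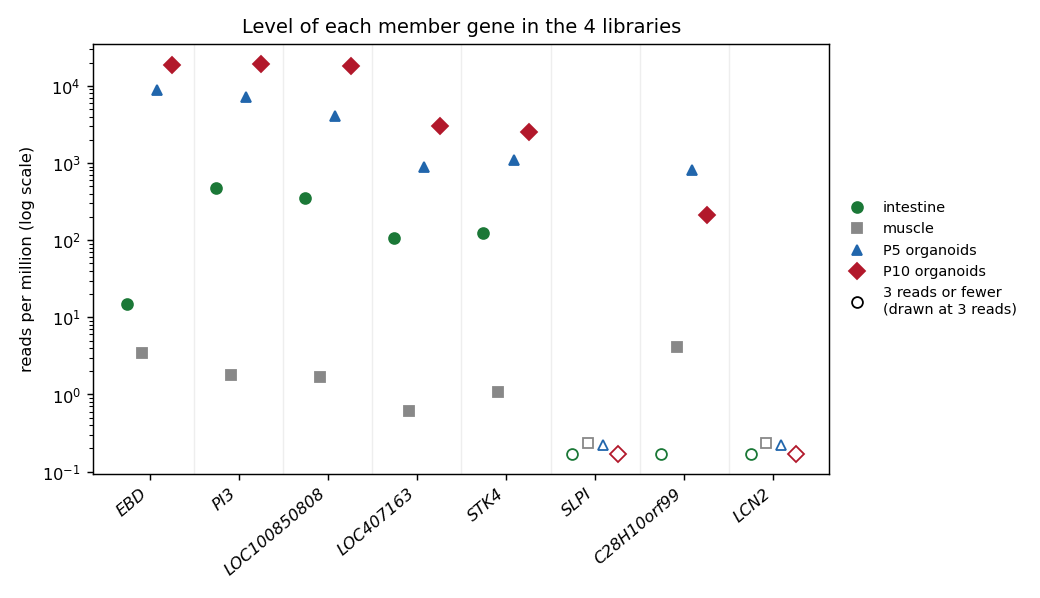
Level in CPM (log scale) of the 8 genes in intestine, muscle, P5 organoids and P10 organoids, 1 point per library, with open symbols drawn at the value of 3 reads where a library had 3 reads or fewer. EBD, PI3 and LOC100850808 reached 18345 to 19494 CPM in P10 organoids, C28H10orf99 was higher in P5 than in P10, and SLPI and LCN2 lay at the floor throughout.

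EBD, the enteric beta-defensin, had 265 reads in intestine, 44 in muscle, 121456 at P5 and 329091 at P10. These are 14.9 CPM (13.2 to 16.8) in intestine, 3.41 in muscle, 8931 in P5 and 18561 in P10. EBD was therefore a low gene in intestine, at rank 7869 of the rows ordered by reads, and rank 9 and rank 2 in P5 and P10 organoids. In P5 the rows above it were RN18S1 and mitochondrial genes only. The CPM ratio to intestine was 599 (531 to 678) in P5 and 1245 (1104 to 1410) in P10, and P10 was 2.08-fold above P5 (2.06 to 2.09). Of the 8 genes it had the largest ratios to intestine among those with more than 3 reads there, and the smallest intestine to muscle ratio, at 4.38 (3.17 to 6.17).

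PI3, or elafin, had 8449 reads in intestine, 23 in muscle, 98603 at P5 and 345644 at P10, which are 475, 1.78, 7250 and 19494 CPM. It was the row with the most reads in P10, ahead of EBD and LOC100850808, and these 3 rows were above the mitochondrial COX3. In contrast to EBD, PI3 was already a prominent row in intestine, at rank 223, and its CPM ratio of intestine to muscle was 267 (178 to 421). The ratio to intestine was 15.3 (14.9 to 15.6) in P5 and 41.0 (40.1 to 41.9) in P10, and P10 was 2.69-fold above P5 (2.67 to 2.71).

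LOC100850808 had 6236 reads in intestine, 22 in muscle, 56165 in P5 and 325275 in P10 organoids, or 351, 1.70, 4130 and 18345 CPM. Its ratio to intestine was 11.8 (11.5 to 12.1) in P5 and 52.3 (51.0 to 53.6) in P10, and its P10 to P5 ratio of 4.44 (4.40 to 4.48) was the largest of the 8 genes. It was below PI3 in each library, by a factor that was not constant: its reads were 0.738 of those of PI3 in intestine, 0.570 in P5 and 0.941 in P10.

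LOC407163 had 1924 reads in intestine, 8 in muscle, 12199 in P5 and 54045 in P10 organoids, or 108, 0.619, 897 and 3048 CPM. It was 8.29-fold (7.90 to 8.70) above intestine in P5, 28.2-fold (26.9 to 29.5) above it in P10, and 3.40-fold (3.33 to 3.47) higher in P10 than in P5. Its reads per PI3 read were 0.228 in intestine, 0.124 in P5 and 0.156 in P10, so the 3 genes did not keep a fixed proportion. Reads with several alignments were counted by the authors, and how many reads PI3, LOC100850808 and LOC407163 share was not tested.

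STK4 had 2173 reads in intestine, 14 in muscle, 14834 in P5 and 44484 in P10 organoids, or 122, 1.08, 1091 and 2509 CPM. The kinase row was thus ranked 71 in P5 and 36 in P10 organoids, against 1083 in intestine. Its ratio to intestine was 8.92 (8.53 to 9.34) in P5 and 20.5 (19.7 to 21.4) in P10, and P10 was 2.30-fold above P5 (2.26 to 2.34). STK4 was close in level to LOC407163, above it in intestine, muscle and P5 and below it in P10, and their 95% intervals overlapped in muscle only. Per PI3 read there were 0.257 STK4 reads in intestine (0.245 to 0.270), 0.150 in P5 (0.148 to 0.153) and 0.129 in P10 (0.127 to 0.130).

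C28H10orf99, the GPR15 ligand, had no read in intestine, 54 in muscle, 10968 in P5 and 3756 in P10 organoids. This gives 4.18 CPM in muscle, 806 in P5 and 212 in P10, while 0 reads in intestine allow up to 0.169 CPM. It was the only gene of the 8 with a lower CPM in P10 than in P5, by 3.81-fold (3.67 to 3.95), and the only one above the floor in muscle and at the floor in intestine. Its level was at least 4779-fold above intestine in P5, at least 1255-fold above it in P10, and at least 24.8-fold lower in intestine than in muscle.

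The inhibitor SLPI and the siderophore binder LCN2 were not detected beyond the floor. The 0 reads of SLPI allow up to 0.169 CPM in intestine, 0.232 in muscle, 0.221 in P5 and 0.169 in P10 organoids, and the 0 reads of LCN2 allow the same in intestine, P5 and P10. No fold was computed for either gene.

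In the order of CPM, P10 organoids ran PI3, EBD, LOC100850808, LOC407163, STK4 and C28H10orf99, and P5 organoids ran EBD, PI3, LOC100850808, STK4, LOC407163 and C28H10orf99. Intestine ran PI3, LOC100850808, STK4, LOC407163 and EBD. The counting intervals of neighbours in these 3 orders did not overlap. Muscle ran C28H10orf99, EBD, PI3, LOC100850808, STK4 and LOC407163, each with 54 reads or fewer, and the intervals of neighbours overlapped. Since QuantSeq gives about 1 read per transcript at its 3′ end, reads were compared between genes without division by length.

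Calls of at least 2-fold were made after quantile normalisation over the 4 libraries on log2(value + 1), as the study names this normalisation. Against intestine, P5 organoids had 6 of the 8 genes higher by 2-fold or more, where 24.0% of all 22200 rows with a read were, and none was lower, where 16.4% of all rows were. P10 organoids also had 6 of 8 higher by 2-fold or more, beside 24.7% of all rows, and none was lower, beside 17.3%. The other 2 were SLPI and LCN2. The genes were chosen for high organoid reads, so these counts are fixed by the choice. The log2 differences of P5 organoids and intestine were 9.50 for EBD, 4.01 for PI3, 3.43 for LOC100850808, 3.02 for LOC407163 and 3.33 for STK4, beside a median of 0.18 over all rows. Those of P10 organoids and intestine were 10.87, 7.33, 6.05, 4.78 and 4.15 in the same order, beside a median of 0.21. For C28H10orf99, with no read in intestine, the bounds are those by CPM given above. PI3 in P10 moved most with the scaling, to between 5.10 and 5.36 with scalings by library size. The P5 and P10 comparisons share the intestine library.

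Between the passages, 4 of the 8 genes were at least 2-fold higher in P10 than in P5 organoids, beside 13.1% of all rows, and 1 was at least 2-fold lower, beside 11.2%. The 4 were EBD (log2 difference 1.37), PI3 (3.32), LOC100850808 (2.62) and LOC407163 (1.77), the lower gene was C28H10orf99 (−2.12), and STK4 was within 2-fold at 0.82. The value of PI3 rested on the normalisation. As the row with the most reads in P10 it was given the mean of the highest count of each library, among which was RN18S1 of muscle with 3054858 reads. With scaling by library size, edgeR's trimmed mean of M values (TMM) or upper quartiles, its P10 to P5 difference was 1.32 to 1.43, and with quantile normalisation without the muscle library it was 2.44. STK4 passed 2-fold with the same 3 scalings, at 1.20 by library size, 1.13 by TMM and 1.09 by upper quartiles, whereas EBD was 1.06 by library size and as low as 0.95 by upper quartiles. C28H10orf99 remained at least 2-fold lower in P10 in each of the 10 alternatives that gave it a value.

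**Figure D2:**
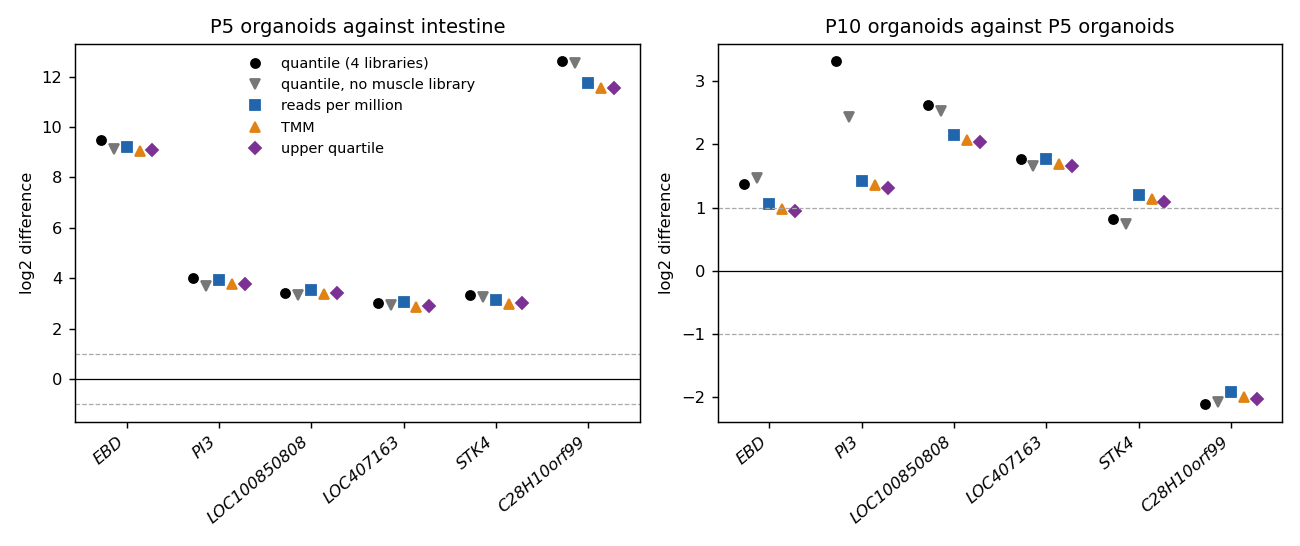
Log2 differences of the 6 genes with more than 3 reads, P5 organoids minus intestine (left) and P10 minus P5 organoids (right), under quantile normalisation with and without the muscle library and under 3 scalings of library size, with dashed lines at 2-fold and 1 value per scaling, C28H10orf99 on the left being drawn against 3 reads in intestine. On the right, PI3 ran from 3.32 down to 1.32, and STK4 and EBD lay on both sides of 2-fold.

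Between the tissues, 4 of the 8 genes were at least 2-fold higher in intestine than in muscle, where 21.1% of all rows were, and 1 was at least 2-fold lower, where 24.0% were. PI3 (log2 difference 6.91), LOC100850808 (6.59), LOC407163 (6.51) and STK4 (5.83) were the higher genes, with CPM ratios between 113 and 267, and C28H10orf99 the lower. EBD was at 0.76 by quantile normalisation and 2.11 by library size. Library size scaling moved the median of all rows in this comparison from −0.051 to 1.12 on the log2 scale, and the share of higher rows among those called from 46.8% to 81.6%. Against intestine, that share went from 59.5% to 48.5% in P5 organoids and from 58.8% to 48.0% in P10 organoids. Between the passages it was 53.9% by quantile normalisation and 40.3% by upper quartiles.

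To set the genes against the epithelium of each library, their reads were expressed per 100 reads of the 9 epithelial markers, a measure added after the data were seen. EBD was at 0.763 in intestine, 86.4 in P5 and 190 in P10 organoids, so it was still 113-fold and 249-fold higher in organoids than in intestine. PI3 was at 24.3, 70.1 and 199.7, and its ratio to intestine was 2.88 in P5 and 8.21 in P10. For LOC100850808 the ratios to intestine were 2.22 and 10.5, for LOC407163 1.57 and 5.63, and for STK4 1.69 and 4.11. On this measure LOC407163 and STK4 were thus within 2-fold of intestine in P5, and all 5 genes were more than 4-fold above it in P10. The measure rests largely on keratins, as KRT8 and KRT19 held 56690 and 52425 of the 140567 marker reads in P5. By CPM in P5, KRT8, KRT19 and KRT18 were 5.33-fold, 7.24-fold and 12.3-fold above intestine, and EPCAM 3.23-fold. These ratios therefore depend on the markers chosen, and other choices were not tested.

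Neutrophils are a known source of SLPI and LCN2, and squamous epithelia of PI3, so the markers of both were examined. The 6 of 8 neutrophil markers in the files summed to 18 reads in intestine, 13 in muscle, 16 in P5 and 14 in P10 organoids, which are between 0.790 and 1.18 CPM. S100A8 and ELANE were at 0 in both organoid libraries, and the organoid reads were those of S100A12, apart from 1 of CXCR2 in P5. Of the squamous epithelium markers, 7 of 8 were in the files, and they summed to 1.91 CPM in intestine, 92.0 in muscle, 6.40 in P5 and 3.21 in P10 organoids. TP63 and DSG3 held all these reads, and the keratin and cornified envelope genes of the list that were in the files were at 0. The 5 goblet cell markers summed to 5628 CPM in intestine and to 1294 and 1022 in P5 and P10 organoids. Of the 5, 3 were lower by 2-fold or more in P5 and 4 in P10, while AGR2 was at 200.3 CPM in intestine, 309 in P5 and 341 in P10.

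The trappin genes and STK4 lie together. In the order of genes of the RefSeq table of the cattle assembly ARS-UCD2.0, 5 of the 7 genes it lists are on chromosome 13, STK4, LOC100850808, LOC407163, PI3 and SLPI, and C28H10orf99 was not matched. The count files list 10 rows from STK4 to SLPI, and reads were unevenly spread over them. The potassium channel gene KCNS1, which follows STK4, had 2 reads at most, WFDC5 had none, and LOC512548 and SLPI had 5 at most. WFDC15B, next to PI3, had 68 reads in intestine, none in muscle, 346 in P5 and 648 in P10 organoids. LOC100295842, which is no member and was picked out after its values were seen, had 1286, 0, 8297 and 19187 reads. Its ratio to intestine was 8.43 (7.95 to 8.95) in P5 and 15.0 (14.1 to 15.8) in P10, and P10 was 1.77-fold above P5 (1.73 to 1.82). The P5 interval overlaps that of STK4, and its ratios in P10 were below those of STK4.

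**Figure D3:**
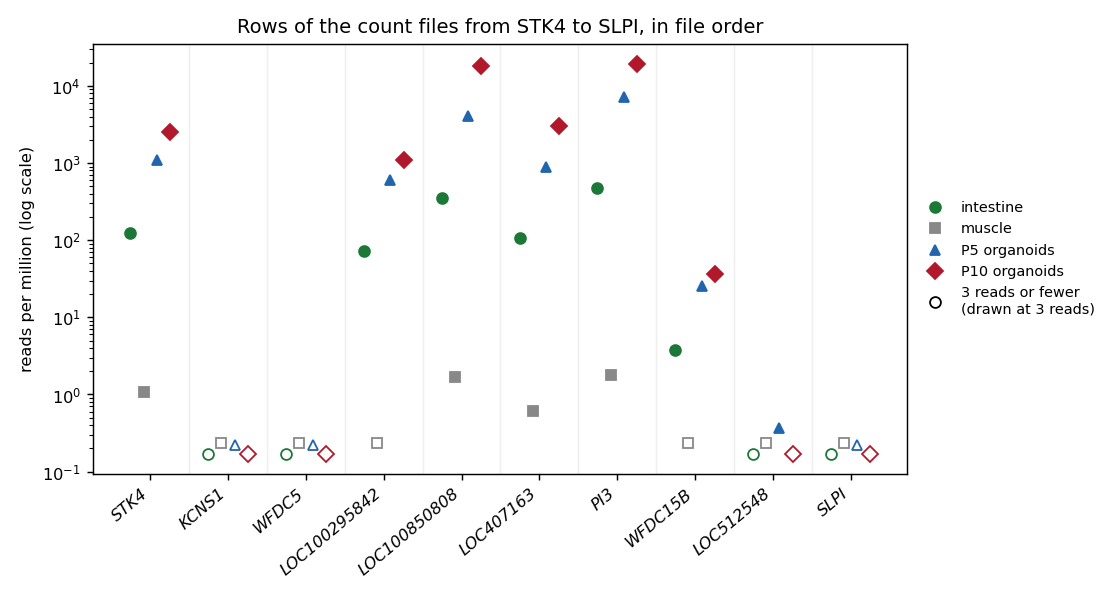
Level in CPM (log scale) of the 10 rows from STK4 to SLPI in the order of the count files, 1 point per library, open symbols at the value of 3 reads. STK4, LOC100295842, LOC100850808, LOC407163, PI3 and WFDC15B each ran from intestine up to P5 and then P10 organoids, and the 4 other rows were at or near the floor.

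On the far side of STK4, TOMM34, a mitochondrial import gene, had 164 reads in intestine, 35 in muscle, 157 in P5 and 463 in P10 organoids. PABPC1L had 92, 0, 99 and 208 reads, and YWHAB, a 14-3-3 protein gene, had 5849, 1251, 10446 and 7119. Of 12 genes in the files from a list known to surround STK4 in mammals, 4 were at least 2-fold higher in P5 than in intestine and none was lower, with a median log2 difference of 0.87 over the 9 that gave one. In P10 5 of 10 were higher and none lower (median 1.16). By TMM these were 2 in P5 (median 0.32) and 2 in P10 (median 0.66). Over all 22200 rows, 24.0% were higher in P5 and 24.7% in P10 by quantile normalisation, and 3505 and 3926 rows by TMM. Those with the highest CPM in any single library were YWHAB (log2 difference 1.14 in P5 and 0.084 in P10), SDC4 with 727 reads in intestine and 1306 and 921 in P5 and P10, DBNDD2 with 282, 327 and 612 and its highest count, 1294, in muscle, and SYS1 with 1339, 913 and 1108. Every gene of this list with more than 3 reads in intestine had smaller log2 differences than STK4, which was at 3.33 and 4.15. STK4 had been added for its pattern, so its place above them is fixed by the choice. Outside this list, LOC100295842 was at 2.99 and 3.66, and WFDC15B at 3.11 and 3.52. The authors' counting by strand is not given in the sources used here, so reads of STK4 and of RNA overlapping it cannot be told apart.

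The other Hippo pathway genes were examined beside STK4, which had been added for its pattern, so that its own place among them is fixed by the choice. Of 16, 4 were higher by 2-fold or more in P5 organoids than in intestine, 3 were lower and 9 were within 2-fold (median 0.64), and in P10 these counts were 3, 4 and 9 (median 0.38). These shares are near those of all rows, of which 24.0% were higher and 16.4% lower in P5 and 24.7% and 17.3% in P10. By TMM, 2 of 16 were higher in P5, beside 3505 of all 22200 rows. STK3, which encodes the paralogous kinase MST2, had 526 reads in intestine, 332 in muscle, 517 in P5 and 763 in P10 organoids. There were thus 0.242 STK3 reads per STK4 read in intestine, 23.7 in muscle, 0.0349 in P5 and 0.0172 in P10. The genes of the list with the highest CPM in any single library were TEAD1, highest in muscle, a transcription factor of the pathway (log2 difference 0.78 in P5 and 0.34 in P10), the kinase LATS1 (0.50 and 0.84), TEAD2 (1.10 and 2.83) and the kinase cofactor MOB1B (1.06 and 0.55). Of the coactivators, YAP1 had 1070 reads in intestine, 755 in P5 and 991 in P10, and WWTR1 had 1124, 10 and 7 reads. STK3, YAP1 and WWTR1 were named after their values were seen.

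**Figure D4:**
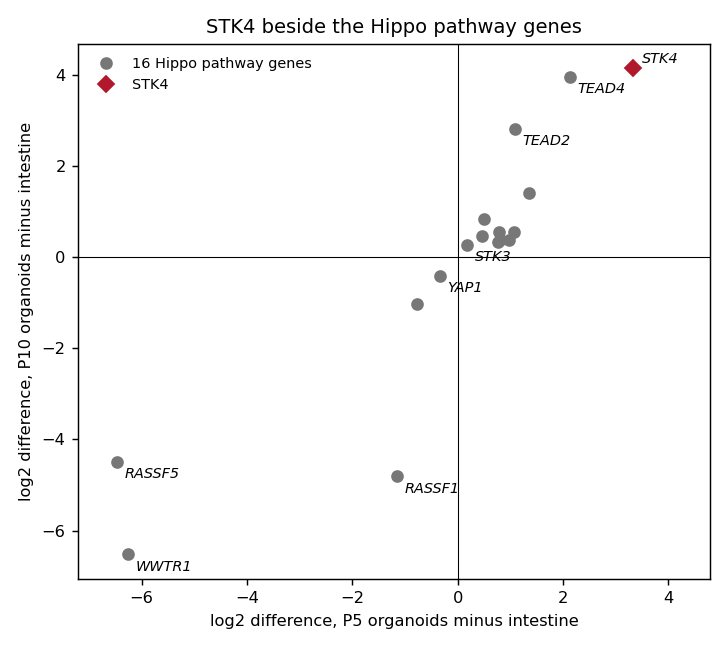
Log2 difference from intestine of P5 organoids (horizontal) and P10 organoids (vertical) for STK4 and 16 Hippo pathway genes after quantile normalisation, 1 point per gene, with no error bars since each library is single. Both axes share the intestine library, the points of RASSF5 in P5 and RASSF1 in P10 are bounds, and STK4 lay at 3.33 and 4.15 while STK3 and YAP1 lay near 0.

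The other defensin and cathelicidin genes were low. Of 35 such rows, 14 had a read and 7 had at least 50 reads in a library. In P5 organoids 7 were at least 2-fold higher and 2 lower than in intestine of the 9 that gave a difference (median 2.39), and in P10 5 were higher and 1 lower of 8 (median 4.00). Over all 22200 rows, 24.0% were higher and 16.4% lower in P5, and 24.7% and 17.3% in P10. Those shares include rows that gave no difference, as 18934 rows gave one in P5 and 17946 in P10, so the bases are unlike. The 7 higher in P5 include DEFB116, with 8 reads in P5 and 0 in intestine, and DEFB7, with 46 and 41. With scaling by library size the medians were 1.37 and 0.88. DEFB had 551 reads in intestine, 0 in muscle, 1011 in P5 and 1010 in P10 organoids, the most of the list. The tracheal antimicrobial peptide gene TAP had 0 reads in both tissues, 721 in P5 and 965 in P10, and was at least 314-fold and 322-fold above intestine. DEFB13 had 6 reads in intestine, 0 in muscle, 648 in P5 and 955 in P10.

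Like EBD, TAP, DEFB13 and DEFB1 had the most reads in P10 and then in P5, but not all genes of the list shared this order. The P10 library was also the larger of the organoid libraries. By CPM, TAP was at 53.0 in P5 and 54.4 in P10, and DEFB1 at 24.4 and 22.4. DEFB1 had 1, 7, 332 and 397 reads in intestine, muscle, P5 and P10, and its ratio to intestine, resting on 1 read, was 434 (77.4 to 17191) in P5 and 398 (71.0 to 15760) in P10. TAP reads were 0.00594 of EBD reads in P5 and 0.00293 in P10, so TAP, the gene nearest to EBD in pattern, was far below it in level. The P10 to P5 ratio of TAP by CPM was 1.03. Among the genes outside the naming rule, picked out after their values were seen, the lingual antimicrobial peptide gene LAP had 0, 0, 192 and 352 reads, DEFB4A had 168, 0, 11 and 32, and the cathelicidin CATHL5 had 24 in intestine only. DEFB4A, which precedes EBD by 3 genes in the RefSeq order of chromosome 27, was therefore lower in organoids than in intestine. Between the passages 1 of 8 was at least 2-fold higher and none lower (median −0.12), beside 13.1% and 11.2% of all rows, whereas EBD was 2.08-fold higher by CPM.

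**Figure D5:**
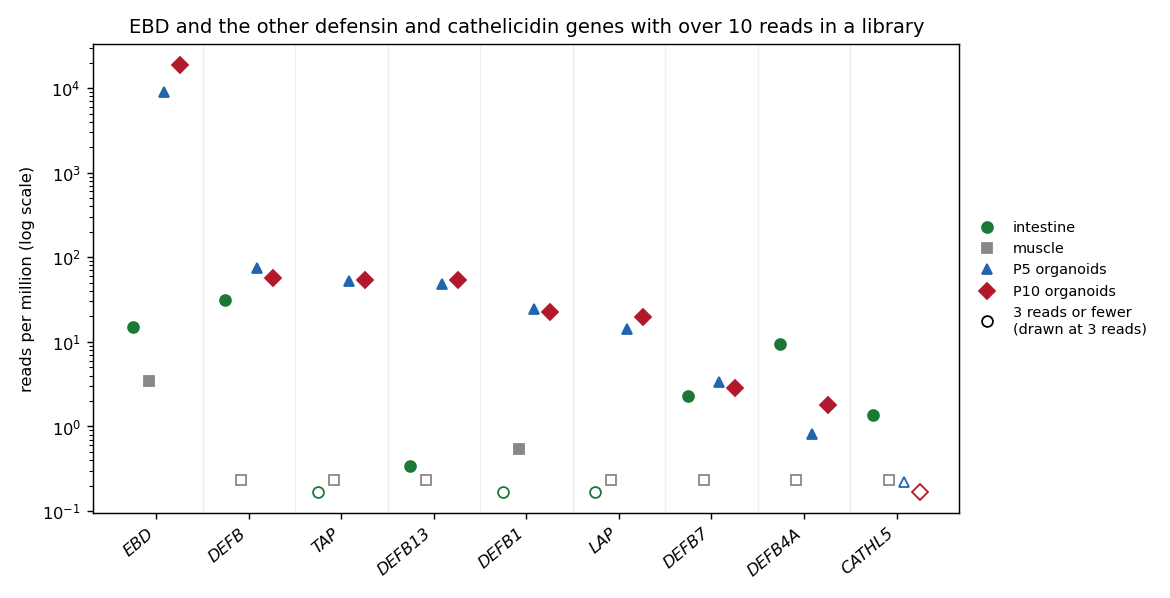
Level in CPM (log scale) of EBD and the 8 other defensin and cathelicidin genes with over 10 reads in a library, 1 point per library, open symbols at the value of 3 reads. EBD reached 8931 and 18561 CPM in P5 and P10 organoids while no other gene passed 74.3, and DEFB4A and CATHL5 were highest in intestine.

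The other WAP-domain and Kazal-type protease inhibitors did not share one direction. Of the 20 in the files, 4 were past 2-fold higher in P5 than in intestine and 3 lower of 8 with a difference (median 1.07), and in P10 4 were higher and 3 lower of 7 (median 1.25, but −0.038 with scaling by library size). Over all 22200 rows, 24.0% were higher and 16.4% lower in P5, and 24.7% and 17.3% in P10. SPINK1, a trypsin inhibitor, was the largest in intestine and in the organoids, with 24296 reads in intestine, 39 in muscle, 5409 in P5 and 7811 in P10 organoids. SPINK4 had 22250, 93, 4936 and 5247 reads. WFDC2 had 517, 0, 591 and 3190 reads, with log2 differences from intestine of 0.40 in P5 and 2.48 in P10, and WFDC15B had differences of 3.11 and 3.52. Neither family moved as one. Among genes picked out after their values were seen, the WAP-domain gene WFDC1 had 339 reads in intestine, 1 in P5 and none in P10. The Kazal-type gene SPINK5 had few reads, 22 in intestine, 32 in P5 and 26 in P10. Its log2 differences by quantile normalisation were 1.74 and 1.25, while its CPM was 1.24 in intestine, 2.35 in P5 and 1.47 in P10.

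Other antimicrobial and mucosal defence genes gave more lower than higher calls. In P5 organoids 10 were at least 2-fold lower than in intestine and 5 higher of 26 (median −0.59), and in P10 13 were lower and 2 higher of 21 (median −1.68). Over all 22200 rows, 16.4% were lower and 24.0% higher in P5, and 17.3% and 24.7% in P10. By TMM, 15 of the list were lower and 4 higher in P5 (median −1.29), and 16 and 2 in P10 (median −2.14). TMM gave 4827 lower and 3505 higher of all rows in P5, and 5875 and 3926 in P10. The 5 higher in P5 include PGLYRP4, DUOX2 and ITLN2, with 14, 12 and 4 reads in P5 and 0 in intestine. DMBT1, a scavenger receptor of mucosal fluids, had 60833 reads in intestine, 21471 in P5 and 25879 in P10. PIGR, the transporter of secretory immunoglobulin, had 60528, 9955 and 15788, and the higher of the rows of the antibacterial phospholipase PLA2G2A had 42195, 59 and 199. REG4, an intestinal lectin, had 9710 reads in intestine, 27773 in P5 and 19167 in P10 organoids (log2 differences 2.20 and 0.74). BPI, which binds bacterial endotoxin, was outside the named rows and was picked out after its values were seen, with 1853, 5299 and 20676 reads.

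The receptors and partners of the 8 genes were examined in the same way. Of 15 genes in the files, 6 were at least 2-fold higher in P5 than in intestine and 4 lower of 12 (median 0.72), and in P10 2 were higher and 3 lower of 10 (median −0.15). The 6 include LRP2, TGM1, KLK7 and TGM3, which had 17, 11, 7 and 7 reads in P5 and 1 at most in intestine. Over all 22200 rows, 24.0% were higher and 16.4% lower in P5, and 24.7% and 17.3% in P10. GPR15, the receptor for the C28H10orf99 product, which was named for that role as was TGM2 after their values were seen, had 22 reads in intestine and none in any other library, and CCR6, a receptor of beta-defensins, had 225 in intestine and none elsewhere. Hence neither receptor was detected in the organoids, in which 0 reads allow up to 0.221 CPM in P5 and 0.169 in P10. SUSD2, a second proposed receptor for the same ligand, had 120, 0, 681 and 78 reads in intestine, muscle, P5 and P10, and its log2 difference of P10 and P5 was −3.31 while that of C28H10orf99 was −2.12. The most abundant of the list was ANXA2 with 4104, 771, 7939 and 6701 reads. SLC22A17, a receptor for LCN2, had 270, 20, 7 and 128 reads, and the crosslinking enzyme gene TGM2 had 154, 81, 3 and 54.

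The genes whose pattern was most like that of each member were found by the root mean square difference of log2 values centred per gene over the 4 libraries, among 15045 other rows with at least 50 reads in a library. This is a description over 4 points, and counts entered it without the floor of 3 reads. Each row named below for EBD, PI3, LOC100850808, LOC407163 and STK4 had 0 muscle reads, and those for EBD also had 0 intestine reads. The distances therefore rest in part on values at the floor. EBD was nearest to TAP (0.80), PROM2 (1.01) and LOC112443745 (1.16), and PI3 to TNS4 (0.69), the keratin gene KRT18 (1.10) and GPX2 (1.20). LOC100850808 was nearest to TNS4 (0.15), TROAP (0.66) and CDX1 (0.69), LOC407163 to STARD10 (0.26), TROAP (0.27) and the mitotic kinase gene AURKB (0.30), and STK4 to SLC6A7 (0.21), GP2 (0.24) and the cyclin gene CCNB2 (0.25). C28H10orf99 was nearest to OSR2 (1.18), SLC10A2 (1.31) and DEFB1 (2.01), so its single nearest row was farther from it than that of any of the 5 others. With scaling by library size, the nearest row of EBD, PI3, LOC100850808 and C28H10orf99 each kept place 1. The rows named for LOC407163 then took places 2, 3 and 5, and those for STK4 places 5, 6 and 13, in the order named. Among the 8 themselves, LOC407163 and STK4 differed by 0.48, LOC407163 and LOC100850808 by 0.54, and PI3 and LOC100850808 by 0.61. STK4 and PI3 differed by 1.57. EBD was 2.39 from PI3 and 2.66 from STK4, and C28H10orf99 was 5.36 from PI3 and 4.87 from STK4. STK4 had been added for its parallel pattern, so its nearness to LOC407163, LOC100850808 and PI3 is fixed by the choice. Many other rows were as near, since among non-members LOC407163 would take place 16 for STK4, LOC100850808 place 97 and PI3 place 381. The distances of PI3 carry its quantile-normalised P10 value, which rested on the normalisation. By library size the log2 difference of P10 and P5 was 1.43 for PI3 and 1.20 for STK4.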

How the data were processed

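RNA of 4 bovine samples, 1 library per group, was analysed by 3′ sequencing with 75-base single-end reads from 500 ng of total RNA. The authors aligned reads with Bowtie2 and counted unique and multiple alignments with Bedtools, and the deposited values are whole-number read counts per gene without normalisation. Versions, the genome build, the annotation and the use of strand are not given in the sources used here. Samples were grouped by their titles. The library totals, in reads, were 17776273 for intestine, 12917720 for muscle, 13599831 for P5 and 17730571 for P10 organoids, which sets the precision of each count.

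The counts of 22200 rows with at least 1 read were quantile-normalised over the 4 libraries, after the study's methods, with tied counts placed at the mean of their ranks, and put on the log2(value + 1) scale. The 7592 rows without a read were left out. A difference of at least 2-fold was called, and no test was run. Shares over all 22200 rows include rows that gave no difference, which most list counts leave out, so shares among rows with a difference would be higher. CPM levels have 95% Wilson intervals and CPM ratios exact conditional binomial 95% intervals, which cover counting error only, since PCR copies were not marked. Except in the comparison of patterns, libraries with 3 reads or fewer of a gene were set at the floor. The fold against such a library was computed from 3 reads in it and, where it had no read, is given as a lower bound, while a ratio to 1 to 3 reads is printed from the reads with its interval, and none was computed between libraries that were both at the floor.

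The members and the gene lists were chosen with earlier results of these data known. Named were the 8 members, the 4 genes of each list with the most CPM among those with at least 50 reads, the 3 rows most like each member and the RefSeq neighbours. Lists covered defensins, WAP and Kazal inhibitors, mucosal defence, response genes, receptors, Hippo genes, STK4 neighbours and cell markers. The RefSeq table of ARS-UCD2.0 gave names and gene order only, for 7 of the 8 genes. Alternatives were 9 per comparison, namely CPM, TMM and upper-quartile scaling, pseudocounts of 0.1 and 5, filters of 10 reads in any or every library, rows summed by symbol and thinning to the smallest library. Another 2 were added after the data were seen, quantile normalisation without muscle and without RN18S1. The scripts were tested on simulated data. Scaling factors came from edgeR 4.0.16 and a comparison of the quantile step from limma 3.58.1, both in R 4.3.3, and all else from Python 3.11.15 with numpy 2.4.6, scipy 1.17.1, pandas 2.3.3 and, for the plots, matplotlib 3.10.9.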

Additional observations from a re-analysis of the deposited data

Results flagged for a closer look

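The receptor genes IL10RB and IL22RA1, which together form the receptor for interleukin-22, were above intestine in P5 organoids and below it in P10, with 1 library each, and the difference between passages was not tested. The log2 difference of IL10RB was 0.94 in P5 and −0.47 in P10 organoids, from 942 reads in intestine, 1602 in P5 and 829 in P10. That of IL22RA1 was 1.29 in P5 and −0.31 in P10, from 706, 1519 and 694 reads. By CPM, IL22RA1 was at 39.7 in intestine and 39.1 in P10, a ratio of 0.986 (0.886 to 1.10), so the lower P10 value appeared with quantile normalisation and not with library totals. Both comparisons share the intestine library.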

How the results depend on the processing

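Of 24 differences of the 6 genes above the floor, 24 kept their direction and 21 their side of 2-fold under every alternative run. The exceptions were STK4 (past 2-fold in 3 of 11) and EBD (9 of 11) between P10 and P5, and EBD between intestine and muscle (2 of 10). The numbers of genes at least 2-fold lower, 1 in P10 against P5 and 1 in intestine against muscle, became 0 when 10 reads were required in every library, since this removes C28H10orf99. PI3 between P10 and P5 ran from 1.32 to 3.57, and between P10 and intestine from 5.10 to 7.51. Without RN18S1 in the totals the summed shares were 0.112% in intestine, 0.00168% in muscle, 2.43% in P5 and 6.23% in P10. Without STK4 they were 0.0949%, 2.20% and 5.97% in intestine, P5 and P10. By TMM, 3505 rows were higher and 4827 lower in P5 than in intestine, against 5333 and 3630 by quantile normalisation. No paired analysis was possible because each group has 1 library, and for the same reason no replicate could be left out. The library totals limit undetected genes to 0.169 to 0.232 CPM.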

Other observations

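Genes known to respond to NF-κB and interleukin-17, which also raise defensins in epithelia, were mixed in direction. Of 20 in the files, 7 were at least 2-fold higher and 4 lower in P5 organoids than in intestine (median log2 difference −0.0080, and 0.080 with scaling by library size), and 6 were higher and 6 lower in P10 (median 0.31). Over all 22200 rows, 24.0% were higher and 16.4% lower in P5, and 24.7% and 17.3% in P10. The chemokine gene CCL20 had 21 reads in intestine, 0 in muscle, 1512 in P5 and 87 in P10 organoids, and like C28H10orf99 it was lower in P10 than in P5, with a log2 difference of −4.32. Complement C3 had 15903, 54, 14018 and 52232 reads, complement factor CFB 6271, 17, 2176 and 1933, and the NF-κB inhibitor NFKBIA 2551, 896, 1893 and 919. Of 18 upstream receptors and factors, 4 were higher and 1 lower of 16 in P5 (median 0.14), and 3 were higher and 2 lower in P10 (median 0.51, and −0.16 with TMM). The interleukin-17 receptor IL17RA had 649, 81, 534 and 1006 reads, and CEBPD 1482, 560, 1406 and 2499.

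A few reads of the organoid-rich genes were present in muscle. As a percent of the P5 reads, they were 0.0362% for EBD, 0.0233% for PI3, 0.0392% for LOC100850808, 0.0656% for LOC407163 and 0.0944% for STK4, and 0.492% for C28H10orf99. OSR2, SLC10A2 and DEFB1, the rows with the pattern most like C28H10orf99, had 11, 30 and 7 muscle reads, or 0.588%, 0.651% and 2.11% of their P5 reads. Where these muscle reads came from was not tested.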
